A study of Mus musculus with 4 samples.

Results

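The MAP kinase cascade was examined through 8 genes, chosen by name as the core of the cascade: Rasgrp3, Braf, Map2k1, Map2k2, Mapk3, Mapk8, Mapk9 and Mapk14. All 8 symbols were found once each among the 55401 genes of the deposited count table, and all 8 passed the filter on low counts that left 14123 genes for testing. Their rows in the deposited table of splicing events were taken as well. The rule that picks them uses gene names and no threshold on a measured value.

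RNA was sequenced from follicular B (FOB) cells, the main recirculating B cell of the spleen, sorted as B220+CD93-CD23high CD21low from C57BL/6 mice of 7 weeks. The groups were 2 WT libraries and 2 libraries from mice lacking Hnrnpf in B cells (Hnrnpf bKO). As the study describes its mice, both groups were Hnrnpf fl/fl, and the bKO mice also carried a Cre allele expressed in the B lineage, which removes exon 4 of Hnrnpf there. A B cell in which Cre did not act still carries the intact gene. The WT cells had no Cre, so effects of Cre itself and of the loss of Hnrnpf cannot be told apart. The labels do not tell whether the libraries of a genotype came from separate or pooled mice, so the p-values measure the spread between these 2 libraries per genotype.

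Signals from the B cell receptor, CD40 and Toll-like receptors reach the nucleus in part through MAP kinases. In the ERK arm, RasGRP proteins load Ras with GTP, Ras recruits a Raf kinase, Raf phosphorylates MEK1 and MEK2, and these phosphorylate ERK1 and ERK2. The JNK and p38 arms have the same 3-tier build with other kinases, and all of them are switched on by phosphorylation of protein that is already present, so that mRNA levels report on the supply of kinase and not on its activity. HnRNP F, the product of Hnrnpf, is an RNA-binding protein known as a regulator of alternative splicing.

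The 4 MAP kinases at the bottom of the cascade are recognised by their activation loop, in which a threonine and a tyrosine separated by 1 residue are phosphorylated by the kinase above. The coding stretches below show that loop, with the 3 codons threonine, spacer and tyrosine in capitals, because the spacer is what sorts the members into ERK, JNK and p38 and because the JNK pair is so alike there. They were read 5′ to 3′ from the GENCODE M21 transcripts of GRCm38 and cover 27 bases each.
Mapk3: ggctttctgACGGAGTATgtggccaca
Mapk8: tttatgatgACGCCTTATgtggtgact
Mapk9: tttatgatgACTCCCTATgtggtaact
Mapk14: gatgagatgACAGGCTACgtggctacc

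The Mapk3 stretch lies at chr7:126763449-126763475 on the plus strand, in exon 4 of 9, and its spacer codon encodes the glutamate of the ERK group. The Mapk8 stretch lies at chr14:33392994-33393020 on the minus strand, in exon 6 of 12, and the Mapk9 stretch at chr11:49872821-49872847 on the plus strand, also in exon 6 of 12. Both have a codon for proline, the JNK spacer, and the codons differ between them. The Mapk14 stretch lies at chr17:28728390-28728416 on the plus strand, in exon 8 of 13, with the glycine spacer of the p38 group. Every coding transcript of these genes in which the motif was found, from 4 for Mapk3 to 7 for Mapk9 and Mapk14, held the same 27 bases. None of the 8 genes shared 150 or more transcript bases at 90% identity with another of the 8, so reads of the JNK pair have no such shared stretch.

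The 4 libraries held 15698567 to 18908963 counted reads, of which the 8 genes took 0.0974 to 0.101%. Pairs of libraries of a genotype differed by more than counting noise, with a chi-square per degree of freedom of 4.3 for WT and 3.86 for Hnrnpf bKO. Hnrnpf itself was at 353 and 349 CPM (reads of the gene over the TMM-scaled library total) in WT and at 74.4 and 66.7 CPM in Hnrnpf bKO cells. This was a log2 fold change of -2.32 (SE 0.06, edgeR adjusted p = 1.05e-10), or 0.201 of the WT level, and both bKO libraries were low as labelled. Over all 14123 genes tested 6.97% were called at an edgeR adjusted p of 0.05 or less, 4.15% higher and 2.83% lower in bKO cells. Markers of B cells summed to 16700 to 16900 CPM in WT and 15500 to 16000 CPM in bKO libraries, with 3 of 8 lower. Follicular markers were called higher for 3 of 5 and summed to 5750 to 5960 CPM against 6900 CPM, and of the marginal zone and transitional markers 3 of 5 were lower and 1 higher, with sums of 1250 to 1460 CPM against 1030 to 1040 CPM. Of the plasma cell, T cell and NK cell markers 0 of 5, 0 of 7 and 0 of 4 were called, at sums of 328 to 351, 78 to 96.5 and 6.24 to 8.88 CPM in WT against 324 to 326, 66.8 to 78.9 and 6.03 to 7.4 CPM. The myeloid list summed to 13.8 to 20.8 CPM against 23.5 to 34 CPM, with 2 of 6 tested genes higher, and the red cell and platelet list to 2.42 to 3.61 CPM against 2.23 to 2.81 CPM with 0 of 3 tested genes called. What these marker shifts contribute to the values below was not tested, and in bulk RNA fewer cells of a type and less RNA per cell cannot be told apart.

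First it was asked which of the 8 genes FOB cells hold most of, since a kinase tier may be served by more than 1 gene. Levels between genes are given as FPKM, which divides the reads of a gene by its exonic length and by the total of the library. Map2k1, which encodes MEK1, had the highest mean, 51.8 ± 4.04 FPKM (mean ± SD over 4 libraries, both genotypes together), higher than 93.4% of tested genes. Rasgrp3 followed at 49.1 ± 1.6 FPKM, and the ranges of these genes overlapped, 47.86 to 55.93 FPKM for Map2k1 and 47.33 to 50.63 FPKM for Rasgrp3. The order of this pair differed between the WT and the bKO libraries, which was not tested. Map2k1 was higher in both WT libraries, at 55.93 and 54.62 FPKM against 48.10 and 47.33 FPKM, and Rasgrp3 in both bKO libraries, at 50.63 and 50.18 FPKM against 47.86 and 48.88 FPKM.

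The remaining genes stood in an order that no library broke. Mapk14, the gene of p38α, was at 39.2 ± 1.79 FPKM, Map2k2, the gene of MEK2, at 26.8 ± 1.62 FPKM and Mapk3, the gene of ERK1, at 19.4 ± 1.24 FPKM. Mapk9 (JNK2) had 10.3 ± 0.667 FPKM, Braf 5.06 ± 0.103 FPKM and Mapk8 (JNK1) 2.16 ± 0.298 FPKM, which placed Mapk8 at the 29.3 percentile of tested genes. From Map2k1 to Mapk8 the level fell 24-fold, and the steps Rasgrp3 to Mapk14, Mapk14 to Map2k2, Map2k2 to Mapk3, Mapk3 to Mapk9, Mapk9 to Braf and Braf to Mapk8 were 1.25, 1.46, 1.38, 1.88, 2.04 and 2.34-fold. FPKM divides by the exonic size of the whole gene, which is 13862 bases for Braf and 11444 bases for Mapk8 against 2257 bases for Mapk3, whichever transcripts the cells make.

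**Figure D1:**
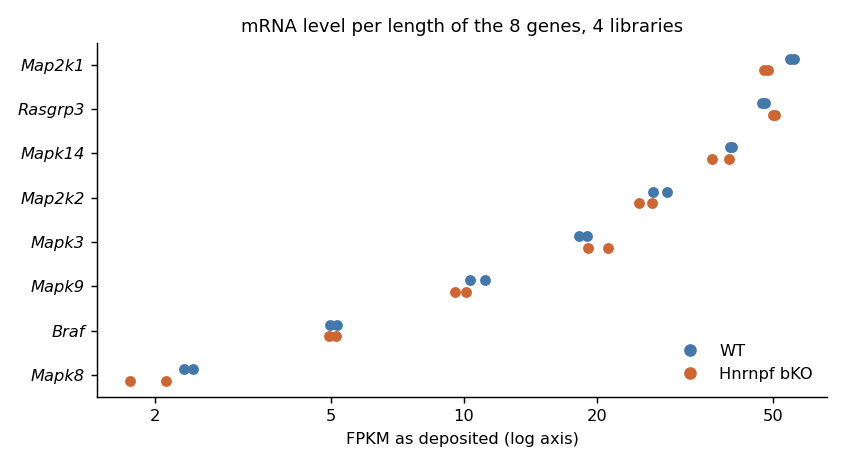
Deposited FPKM on a log axis for the 8 genes, ordered by their mean, with 1 point per library (2 WT, 2 Hnrnpf bKO). The points span 1.76 FPKM for Mapk8 in a bKO library to 55.93 FPKM for Map2k1 in a WT library, and of the neighbouring genes Map2k1 and Rasgrp3 alone have overlapping ranges.

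The comparison of genotypes asked whether loss of hnRNP F altered the mRNA supply of the cascade. By edgeR's quasi-likelihood test, 0 of the 8 genes reached an adjusted p of 0.05 or less, against 6.97% of all genes tested, and with the added demand of a 2-fold change again 0 of 8, against 0.899%. At an unadjusted p under 0.05 there were 2 of 8, Map2k1 and Mapk8, both lower in Hnrnpf bKO cells, and 20.3% of all genes passed that mark. DESeq2 called 0 of 8 and passed 1 at the unadjusted mark. These counts do not show that the values were equal, and the intervals below give the sizes that the libraries allow.

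Rasgrp3, the exchange factor that couples diacylglycerol from phospholipase Cγ2 to Ras in B cells, spans chr17:75435896-75529054 on the plus strand. It had 281 and 275 CPM in WT and 296 and 296 CPM in Hnrnpf bKO libraries. Both bKO libraries were above both WT libraries. The log2 fold change was 0.09 (SE 0.05, 95% interval -0.01 to 0.20, edgeR adjusted p = 0.327), from 278 ± 4.43 to 296 ± 0.303 CPM (SD, n = 2). It was the most deeply counted of the 8 with 4596 to 5297 reads per library, so that its interval reaches no further than 1.15-fold.

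Braf, the Raf kinase that receives the signal from Ras, lies on the minus strand at chr6:39603237-39725463. Its level was 71.7 and 68.8 CPM in WT against 68.9 and 71.8 CPM in bKO cells. The 4 values interleaved, and the means of 70.2 ± 2.06 and 70.3 ± 2.05 CPM (SD, n = 2) were nearer to each other than those of any other of the 8. The log2 fold change of 0.00 (SE 0.07, 95% interval -0.14 to 0.15, edgeR adjusted p = 0.984) corresponds to 0.905 to 1.11-fold. Braf exons overlap those of Ndufb2 on the opposite strand by 146 bases, and the strand setting of the counting is not given in the sources used here.

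Map2k1, which encodes MEK1, the kinase between Raf and ERK, lies at chr9:64185770-64253631 on the minus strand. WT libraries had 190 and 184 CPM and Hnrnpf bKO libraries 163 and 167 CPM. The gap between the groups, 184 down to 167 CPM, was wider than the distance between the libraries of either group. With means of 187 ± 4 and 165 ± 3.33 CPM (SD, n = 2) the difference was -11.8%, a log2 fold change of -0.18 (SE 0.05, 95% interval -0.29 to -0.07). Its edgeR adjusted p of 0.059 missed the threshold, and this was the smallest of the 8. Without the filter on low counts the adjusted p was 0.0367, and with DESeq2 it was 0.144. Leaving out each library in turn gave log2 fold changes of -0.20 to -0.16 and edgeR adjusted p of 0.0968 to 0.253.

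Map2k2, the gene of MEK2, which does the same step as MEK1, lies at chr10:81105915-81133975 on the plus strand. It had 152 and 162 CPM in WT and 151 and 142 CPM in bKO cells. All 4 values lay within a narrow band in which the higher bKO library almost met the lower WT library. The log2 fold change was -0.10 (SE 0.06, 95% interval -0.23 to 0.03, edgeR adjusted p = 0.375). Map2k1 made up 67.6 and 65.5% of the FPKM of the MEK pair in WT and 64.2 and 66.3% in bKO libraries, a difference of -1.29 points (two-sided exact permutation p = 0.667, where 2 against 2 cannot go below 0.333). The groups overlapped in this share.

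Mapk3, the gene of ERK1, the last kinase of the ERK arm, lies at chr7:126759601-126765819 on the plus strand. It gave 41.2 and 42.5 CPM in WT and 47.8 and 43.6 CPM in Hnrnpf bKO cells. Here too both bKO values were above both WT values, though the lower bKO library stood closer to WT than to the other bKO library. The means were 41.9 ± 0.929 and 45.7 ± 2.96 CPM (SD, n = 2), with a log2 fold change of 0.12 (SE 0.08, 95% interval -0.05 to 0.30, edgeR adjusted p = 0.441). In the annotation 4 processed pseudogenes resemble Mapk3 over up to 657 bases, and they had 0 counts in every library. Map2k2 shared shorter stretches, of at most 173 bases, with 41 other genes, Mapk8 with 17 over at most 179 bases and Rasgrp3 with 2 over at most 162 bases, and some of these genes are expressed, so reads within such stretches are of uncertain origin.

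**Figure D2:**
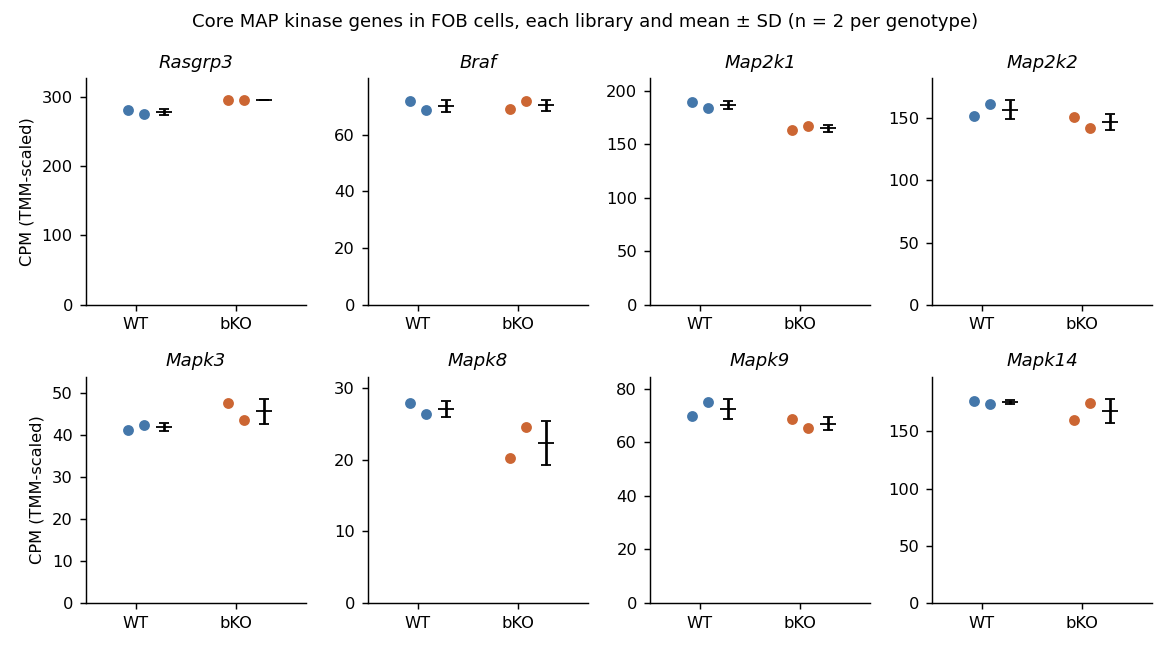
TMM-scaled CPM of each of the 8 genes from 0, with 1 point per library and the mean ± SD (n = 2) beside the points, for WT and Hnrnpf bKO. Map2k1 shows the clearest gap, 184 and 190 against 163 and 167 CPM, Mapk8 has both bKO points below WT but far apart from each other, and the points of Braf and Mapk14 overlap between genotypes.

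Mapk8, the gene of JNK1, a stress- and CD40-responsive kinase, lies at chr14:33377898-33447158 on the minus strand. WT libraries had 27.9 and 26.3 CPM and bKO libraries 20.2 and 24.5 CPM. Both bKO values were lower, but they were farther apart from each other than the upper one was from WT. The difference of -17.5%, a log2 fold change of -0.28 (SE 0.11, 95% interval -0.52 to -0.04, edgeR adjusted p = 0.17), was the largest of the 8 and had the widest interval, on 316 to 501 reads per library. A single library decided it. Without Hnrnpf bKO replicate 2 the log2 fold change was -0.43 with an edgeR adjusted p of 0.0484, and without Hnrnpf bKO replicate 1 it was -0.14 with 0.606, in fits that take the lone library to vary like those of the other genotype.

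Mapk9, the gene of JNK2, lies at chr11:49846751-49886421 on the plus strand. It had 70.0 and 75.2 CPM in WT and 68.7 and 65.3 CPM in bKO cells. The groups did not overlap, with a gap smaller than the distance between the WT libraries. The log2 fold change was -0.12 (SE 0.07, 95% interval -0.27 to 0.04, edgeR adjusted p = 0.397). Mapk8 made up 19.1 and 17.2% of the FPKM of the JNK pair in WT and 14.8 and 18.2% in bKO libraries, a difference of -1.68 points (two-sided exact permutation p = 0.667). One bKO library lay between the WT libraries in this share and the other below them.

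Mapk14, the gene of p38α, the kinase of the p38 arm in this set, lies at chr17:28691329-28748406 on the plus strand. Its values were 177 and 174 CPM in WT and 160 and 175 CPM in bKO cells. The higher bKO library fell between the WT libraries. The log2 fold change was -0.07 (SE 0.06, 95% interval -0.19 to 0.06, edgeR adjusted p = 0.583).

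Taking the 8 genes side by side, 5 had a log2 fold change below 0, which is 62.5% against 50.4% of all genes tested, with a median of -0.08 against 0.00. The groups of libraries did not overlap for 6 of the 8, with Hnrnpf bKO above WT for Rasgrp3 and Mapk3 and below WT for Map2k1, Map2k2, Mapk8 and Mapk9. Across all genes tested 50.1% did not overlap, so this share is a weak mark with 2 libraries per genotype. The 8 genes were measured with more precision than most, with a median SE of 0.06 on the log2 scale against 0.11 and mean counts of 428 to 4940 reads. All 8 intervals lay inside a 1.5-fold change in either direction, against 8859 of the 14123 genes tested. Inside 1.3-fold lay 7 of 8, Mapk8 being the exception, against 6619 of 14123. The interval held 0 for 6 of 8, against 11261 of 14123, and excluded it for Map2k1 and Mapk8. The median size of the log2 fold change regardless of sign was 0.11, against 0.14 for all genes tested.

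**Figure D3:**
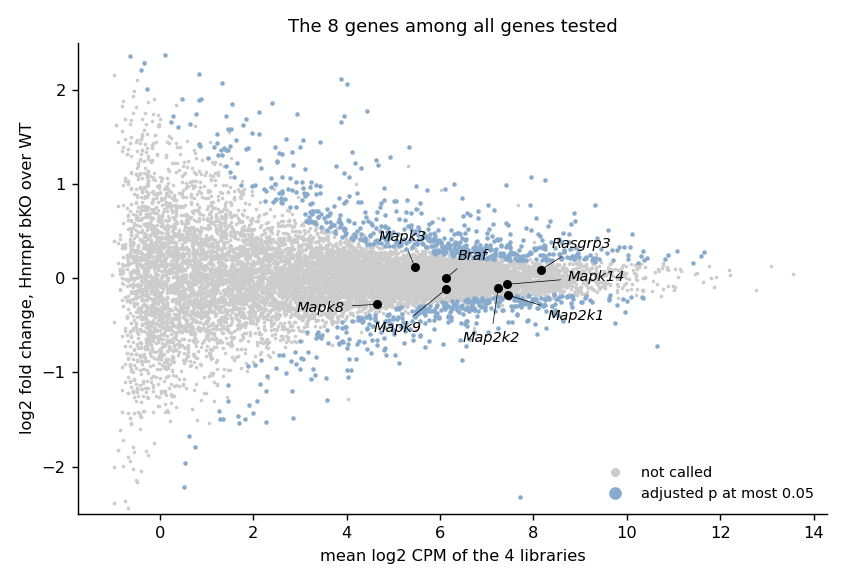
Log2 fold change (Hnrnpf bKO over WT) against mean log2 CPM for all 14123 genes tested, with called genes in blue and the 8 genes in black, of which none is called. The axis ends at ±2.5, which leaves out 15 genes, and all 8 sit close to 0 in the well-counted part of the plot, from -0.28 for Mapk8 to 0.12 for Mapk3.

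**Figure D4:**
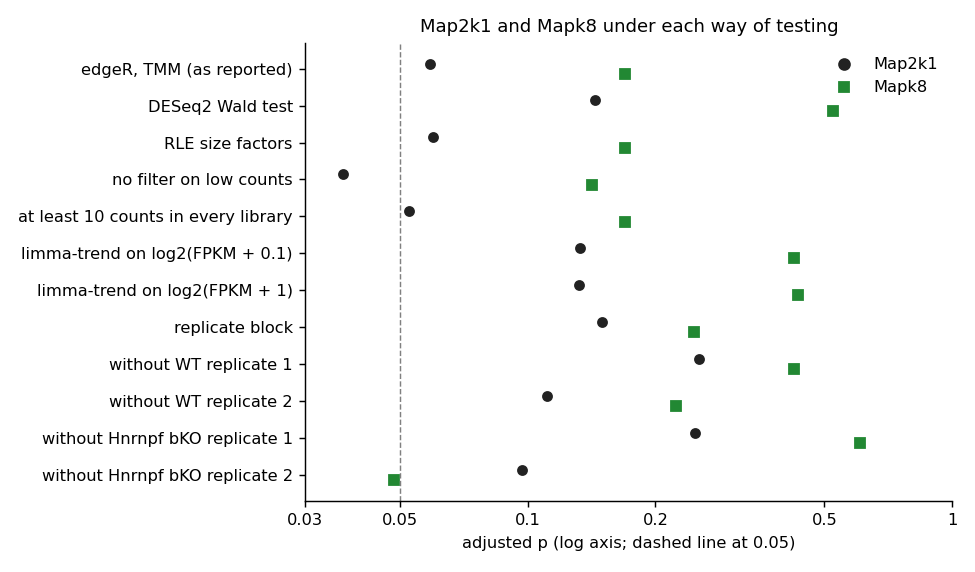
Adjusted p on a log axis for Map2k1 (circles) and Mapk8 (squares) under each way of testing, with a dashed line at 0.05. Map2k1 passes the line in 1 setting, without a filter on low counts (0.0367), and Mapk8 in 1 setting, without Hnrnpf bKO replicate 2 (0.0484).

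The wider pathway was taken from lists of 108 genes by role, of which 107 were in the table and 95 were tested. Of these, 7 were called by edgeR, which is 7.37% against 6.97% over all genes tested. The 4 higher genes were Rasgrp2, Rasa4, Map3k5 and Rps6ka5, beside 4.15% of all genes called higher, and the 3 lower genes were Shc1, Map4k4 and Fos, beside 2.83% called lower. Over the 95 genes the median log2 fold change was 0.00. At an unadjusted p under 0.05 there were 20 of 95, where 20.3% of all genes passed. The shares of 6.97% called and 20.3% at the unadjusted mark are also the background for the counts of each list below.

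Upstream of Ras, 2 of 7 tested exchange factors and adaptors were called, in opposite directions. Rasgrp2, a close relative of Rasgrp3 that mainly activates Rap, had 825 and 785 CPM in WT and 989 and 1040 CPM in bKO cells. Both bKO libraries were well above WT, and the log2 fold change was 0.33 (SE 0.05, edgeR adjusted p = 0.0014). Shc1, an adaptor that links receptors to Grb2 and Sos, had 104 and 103 CPM in WT and 79.7 and 84.9 CPM in bKO cells. It fell by 0.33 on the log2 scale (SE 0.06, edgeR adjusted p = 0.00695), and without Hnrnpf bKO replicate 1 the adjusted p was 0.052.

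Of the Ras GTPases 0 of 5 tested were called, with 1 at the unadjusted mark, and of their GTPase-activating proteins 1 of 9. This was Rasa4, a calcium-regulated inactivator of Ras, with 24.9 and 21.2 CPM in WT and 29.2 and 32.9 CPM in bKO cells, a log2 fold change of 0.44 (SE 0.11, edgeR adjusted p = 0.0274). Its groups did not overlap, but the call was lost with DESeq2 (adjusted p = 0.107) and, in edgeR, without WT replicate 2 (adjusted p = 0.161) or Hnrnpf bKO replicate 2 (adjusted p = 0.131).

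Among kinases that start the JNK and p38 arms, 1 of 5 MAP4 kinases and 1 of 17 tested MAP3 kinases were called. Map4k4, which feeds into JNK, had 233 and 231 CPM in WT and 203 and 199 CPM in bKO cells, a log2 fold change of -0.21 (SE 0.05, edgeR adjusted p = 0.0242). This call rested on all 4 libraries, since with any of them left out the edgeR adjusted p was 0.0735 to 0.104. Map3k5, the gene of ASK1, a stress-responsive kinase above both JNK and p38, had 148 and 132 CPM in WT and 169 and 187 CPM in bKO cells. Its log2 fold change was 0.35 (SE 0.07, edgeR adjusted p = 0.00789), and the call remained with each library left out.

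By edgeR, 0 of 5 MAP2 kinases outside Map2k1 and Map2k2, 0 of 6 tested MAP kinases outside the core set, 0 of 7 scaffolds, 0 of 8 dual-specificity phosphatases and 0 of 5 Sprouty and Spred inhibitors were called. Their counts at an unadjusted p under 0.05 were 0, 0, 2, 3 and 1. Over all genes tested 6.97% were called and 20.3% passed the unadjusted mark, so lists this short can hold 0 called genes at the background share. These lists hold the direct partners of the core kinases and the phosphatases that switch them off.

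Below the MAP kinases, 1 of 10 activated kinases and 1 of 11 target transcription factors were called. Rps6ka5, the gene of MSK1, a nuclear kinase activated by ERK and p38, had 47.5 and 45.6 CPM in WT and 58.1 and 66.5 CPM in bKO cells, a log2 fold change of 0.42 (SE 0.08, edgeR adjusted p = 0.00894). Both bKO libraries were above WT, and without Hnrnpf bKO replicate 2 the edgeR adjusted p was 0.0718. Fos, an immediate early gene that MAP kinase signalling induces within minutes, had 14.1 and 6.89 CPM in WT and 2.42 and 4.91 CPM in bKO cells.

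The Fos libraries within each genotype differed more from each other than the nearest libraries of the genotypes did, on 231 and 131 reads in WT and 38 and 88 reads in bKO cells. The log2 fold change of -1.49 (SE 0.34, edgeR adjusted p = 0.0189) was the only one of the 95 past a 2-fold change and the threshold together. Without WT replicate 1 it was -0.89 (edgeR adjusted p = 0.0953) and without Hnrnpf bKO replicate 1 it was -1.08 (0.0703), while without Hnrnpf bKO replicate 2 it was -2.10. DESeq2 gave an adjusted p of 0.272.

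**Figure D5:**
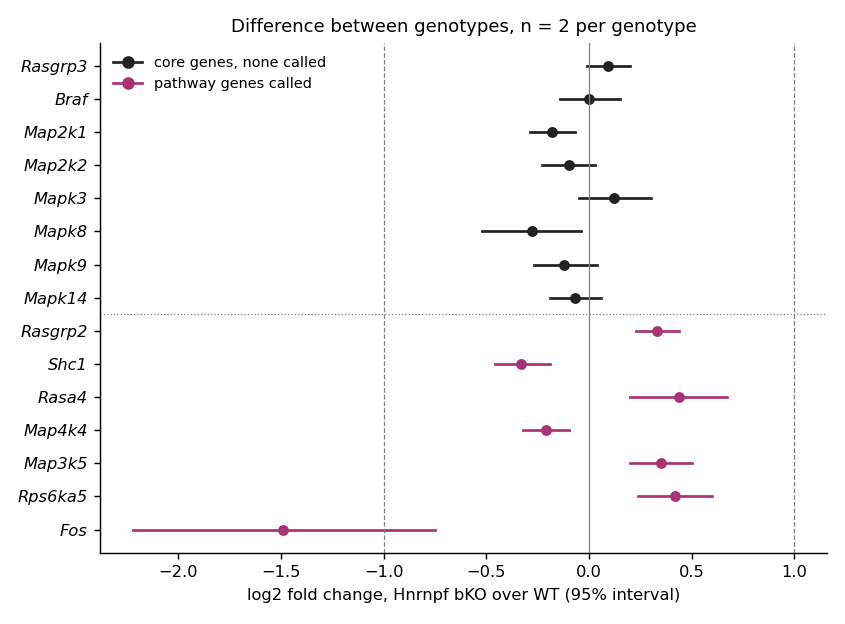
Log2 fold change (Hnrnpf bKO over WT) with its 95% interval from edgeR for the 8 core genes (black, none called) and the 7 called genes of the wider pathway (purple), with dashed lines at a 2-fold change. The core intervals lie between -0.52 and 0.30, the values of the called genes run from -1.49 for Fos, the only one past the 2-fold line, to 0.44 for Rasa4, and Map4k4 at -0.21 is nearer to 0 than Mapk8 at -0.28.

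Since hnRNP F acts on splicing, the table of altered splicing events was searched for the same genes. It holds 1556 events, of which 1017 were skipped exons, 227 retained introns, 145 alternative 5′ splice sites, 121 alternative 3′ splice sites and 46 mutually exclusive exons. Of the 8 core genes 1 had a row, Braf, with 1 skipped exon, which is near the share of all genes of like depth given next. Among tested genes averaging 100 counts or more, 1048 of 9875 had a row, or 10.6%, and the share rose with depth, from 9.08% at 100 to 1000 counts to 12.8% at 1000 to 10000 counts, the class of 6 of the 8 including Braf. Rasgrp3, Map2k1, Map2k2, Mapk3, Mapk8, Mapk9 and Mapk14 had no row. As the table lists events past the authors' thresholds, a gene without a row may have been tested and missed them or not have been tested.

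In the wider pathway 16 genes had a row, with 21 events among them. All 16 were among the 84 pathway genes with a mean of 100 counts or more, where 10.6% of all such genes had a row. By depth, they were 5 of 40 genes at 100 to 1000 counts, 9 of 39 at 1000 to 10000 and 2 of 5 above that, beside 9.08, 12.8 and 14.2% of all genes in these classes, and no test was made of this difference. They included 4 of the 5 MAP4 kinases, with a skipped exon in each of Map4k1, Map4k3 and Map4k4 and a retained intron in Map4k2. Of these Map4k4 alone was also called by total level, and the log2 fold changes of Map4k1, Map4k2 and Map4k3 were 0.04, 0.02 and 0.00. Among the GTPase-activating proteins Nf1 had a skipped exon, Rasal3 a skipped exon and a retained intron, and Rasa4 an alternative 3′ splice site, an alternative 5′ splice site and a retained intron. At the MAP3 kinase tier Araf, a paralog of Braf, and Map3k10 each had a skipped exon, and Map3k7, the gene of TAK1, an alternative 5′ splice site.

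Of the other MAP kinases, Mapk7, the gene of ERK5, had 3 alternative 5′ splice sites and Mapk11, the gene of p38β and a paralog of Mapk14, a retained intron. A retained intron was listed for the scaffold Spag9, and skipped exons for Shc1, the kinase Mapkapk3 and the transcription factor Mef2d. Shc1, Rasa4 and Map4k4 had both a called level and a row, while the log2 fold changes of the other 13 lay between -0.12 for Mef2d and 0.11 for Mapkapk3 and none was called by edgeR.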

How the data were processed

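Poly(A) RNA of FOB cells from 2 WT and 2 Hnrnpf bKO samples was measured by RNA-seq, and groups and replicate numbers were taken from the labels. The authors aligned trimmed reads to GRCm38 and counted them per gene. The submitters' processing notes name cutadapt 1.9.1, HISAT2 2.0.1, HTSeq 0.6.1 and FastQC 0.10.1. The deposited counts are whole numbers without normalization. The authors also deposited FPKM and the exonic size of each gene, and counts over this size and the library total gave the FPKM back within 1% for 100% of values of at least 1 FPKM. The strand setting is not given in the sources used here. The authors' splicing table, from rMATS, holds, for each event, the gene, the kind of event and 2 columns of the authors' own comparison (an FDR and a difference of inclusion levels), which were not used. The kind of event is used as deposited.

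Counts were compared with edgeR 4.0.16 in R 4.3.3 over 14123 genes, with TMM normalization, filterByExpr, the quasi-likelihood test and Benjamini-Hochberg adjustment. Genes with an adjusted p of 0.05 or less were called. The common dispersion was 0.00348, a coefficient of variation of 5.9% between libraries of a genotype. DESeq2 (run here as 1.42.0; the study's methods name the tool in another version) and limma-trend (3.58.1) on log2(FPKM + 0.1) or log2(FPKM + 1) of genes averaging 0.5 FPKM or more, were alternatives, beside RLE size factors, other filters, other thresholds, a block for the replicate number and fits without each library in turn, in which a lone library is assumed to vary like those of the other genotype. The test was checked on simulated counts. Shares of paralogs were compared with a two-sided exact permutation test.

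Named are Hnrnpf, the 8 genes, and each gene of the pathway lists that was called or had a splicing row. Ndufb2 falls outside this rule and was named after its values were seen. Some marker genes are not reported here by name. The 8 genes and the lists were chosen with earlier results of these data known. Gene positions and sequences are those of GENCODE M21, which gave the same coordinates for 99.4% of the genes found in it and for all 8 genes. Like transcripts were searched with blastn 2.17.0.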

Additional observations from a re-analysis of the deposited data

How the results depend on the processing

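Of the 8 core genes, 0 were called by edgeR as reported and 1 without a filter on low counts (Map2k1), at a threshold of 0.1 (Map2k1) or without Hnrnpf bKO replicate 2 (Mapk8), and with 1 library left out 0 to 1. The 7 pathway calls became 11 without a filter, 0 and 0 with limma on log2(FPKM + 0.1) and log2(FPKM + 1), 4 with the replicate block and 4 at a threshold of 0.01, and 5 to 9 with 1 library left out. Over all genes 985 calls became 621 with DESeq2, 45 and 41 with limma, 612 with the replicate block, 1514 at 0.1, 392 at 0.01, and 679 to 861 with 1 library left out. The sign of Braf turned, at -0.01 and -0.01 with limma and -0.03 to 0.03 with 1 library left out. Of the other results for single genes and shares, 151 stayed on their side of the threshold with the same sign or within the replicate spread, 29 lost a call and 2 gained one, and the cause was not tested. The replicate numbers share only a label: deviations of same-numbered libraries correlated at -0.0869 across 14123 genes, and nothing names a pairing. The alternatives for Hnrnpf and the called pathway genes were chosen after seeing the data. The replicate block ended the calls of Rasa4, Map4k4 and Fos (edgeR adjusted p = 0.0669, 0.0812 and 0.0518). The SE was 0.11 for Mapk8, on the fewest reads, and 0.05 for Rasgrp3, on the most, and depth and spread between libraries were not separated.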
